A study of Mus musculus with 15 samples.

Results

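The livers of mice labelled Sirt3 knockout were set against those of wild-type mice, both on a normal salt diet, across all genes measured. The comparison takes the 3 liver libraries titled as Sirt3 knockout on normal salt (KO NSD 1 to 3) and the 3 titled as wild type on normal salt (WT NSD 1 to 3), 6 of the 15 libraries of the series, chosen by title alone. KO NSD mice are labelled with the genotype Sirt3-/-, and WT NSD mice as wild type. Both groups are labelled as male C57BL/6 mice, 6 months old, 6 weeks old at the start, on feed with 0.4% NaCl. The labels give the duration of feeding as 4 months in some fields and as 8 weeks in another. The sources used here do not give the deleted part of Sirt3, the source of the mice or the number of animals behind a library, so p-values measure the spread between these libraries, which may be technical. The same genotypes on 8% NaCl (KO HSD and WT HSD, 3 libraries each) gave the other diet, and 1 further wild-type library on normal salt, titled by diet without a genotype, gave an additional level.

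SIRT3 is a deacetylase of the mitochondrial matrix that uses NAD. In liver it is known to act on enzymes of fatty acid oxidation, ketone body and urea synthesis, antioxidant defence and the respiratory chain, and the acetylation of these proteins is not measured by RNA sequencing. Liver RNA comes mostly from hepatocytes, with smaller parts from Kupffer cells (the resident macrophages), endothelial and stellate cells, and blood cells. In such bulk RNA, fewer cells of a type and less RNA per cell cannot be told apart.

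The 6 libraries held 15726897 (WT NSD 3) to 19539406 (KO NSD 2) expected counts. Levels below are CPM, counts scaled to the size of a library. The labelled knockout libraries differed widely among themselves. By genes over 2-fold apart, KO NSD 1 and KO NSD 2 differed in 966 genes, KO NSD 2 and KO NSD 3 in 393, and KO NSD 1 and KO NSD 3 in 389, while KO NSD 2 differed from the 3 WT NSD libraries in 645, 569 and 803 genes. WT NSD 1 and WT NSD 3 differed in 686 genes. KO NSD 1 and KO NSD 3, both labelled male, were nearly without transcripts of the Y chromosome. The 5 Y-linked genes in the table summed to 2.56, 84.6 and 1.78 CPM in KO NSD 1, 2 and 3, against 82.6, 75.3 and 102 CPM in WT NSD 1, 2 and 3. Values with KO NSD 2 as the only labelled knockout library are therefore given for the count of called genes, most lists of immune cell genes and the sex-biased genes; that library is then assumed to vary like the other groups.

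Sirt3 transcript did not set the groups apart. Sirt3, at GRCm38 chromosome 7, 140863663 to 140882309 (Entrez ID 64384), had 64.1, 42.6 and 43.1 CPM in KO NSD 1 to 3, against 48.9, 51.8 and 52.2 CPM in WT NSD 1 to 3. KO NSD 1 was the highest of the 6 libraries and the other labelled knockout libraries the lowest, so the groups overlapped. The log2 fold change, labelled knockout over wild type, was -0.03 ± 0.18 (SE; adjusted p = 0.969 by edgeR's quasi-likelihood test with Benjamini-Hochberg adjustment, as for every adjusted p below unless another tool is named). It was -0.27 with KO NSD 2 alone (adjusted p = 0.906), and its sign turned with library totals as the scaling (0.064). The effective transcript length implied by counts and FPKM (reads scaled to transcript length and library size) was 1415, 1420 and 1413 bases in KO NSD and 1418, 1423 and 1417 bases in WT NSD. A deletion of some exons that leaves the rest of the transcript in place would not be seen in values per gene. Of the 58 other genes tested within 2 Mb of Sirt3, DESeq2 called 4 higher and 2 lower (3.25% and 1.82% of all genes). By edgeR 0 of the 58 passed (11 had an unadjusted p under 0.05), and their median log2 fold change was 0.12. All KO NSD libraries lay above all WT NSD libraries in 11 of them and below in 3, against 10.2% and 9.3% of all genes tested. The other sirtuin genes did not pass either (0 of 7 sirtuins called by edgeR or DESeq2, median -0.03, and 0.064 with library totals). Every direction below rests on the labels.

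Across 13051 genes tested, 54 (0.414%) passed an adjusted p threshold of 0.05, of which 31 (0.238%) were higher and 23 (0.176%) lower in KO NSD than in WT NSD. The higher genes included many genes of neutrophils and macrophages, and 28 of the 31 averaged under 5 CPM in WT NSD. The lower genes included receptors, transporters and enzymes of hepatocytes. In all 54 genes the 6 libraries did not overlap between the groups. Over all genes tested, 10.2% had all KO NSD libraries above all WT NSD libraries and 9.3% had them all below; 51.2% had a log2 fold change above 0, and the median was 0.01. An unadjusted p under 0.05 was seen in 1860 genes (14.3%). Called below means called by edgeR unless DESeq2 is named. DESeq2 called 661 genes (5.06%; 424 higher, 3.25%, and 237 lower, 1.82%), all 54 included, and limma-voom called 27 (0.207%; 10 higher, 0.0766%, and 17 lower, 0.13%), all among the 54. Scaled by library totals, 73 genes passed (52 higher, 21 lower). The count rested on single libraries: it was 11, 420 and 12 without KO NSD 1, 2 or 3 and 6, 5 and 35 without WT NSD 1, 2 or 3. Without WT NSD 1 or WT NSD 2 no gene was called higher by edgeR. Sucnr1, Trmt9b, Zfp991 and Zfp992, all lower, passed whichever of the 6 libraries was left out. With KO NSD 2 as the only labelled knockout library, the 31 higher genes had a median log2 fold change of 1.74 and the 23 lower genes one of -1.79. KO NSD 2 was among the libraries that called these genes and lay outside the WT NSD range in all 54. Their signs with KO NSD 2 alone were therefore fixed in advance.

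**Figure D1:**
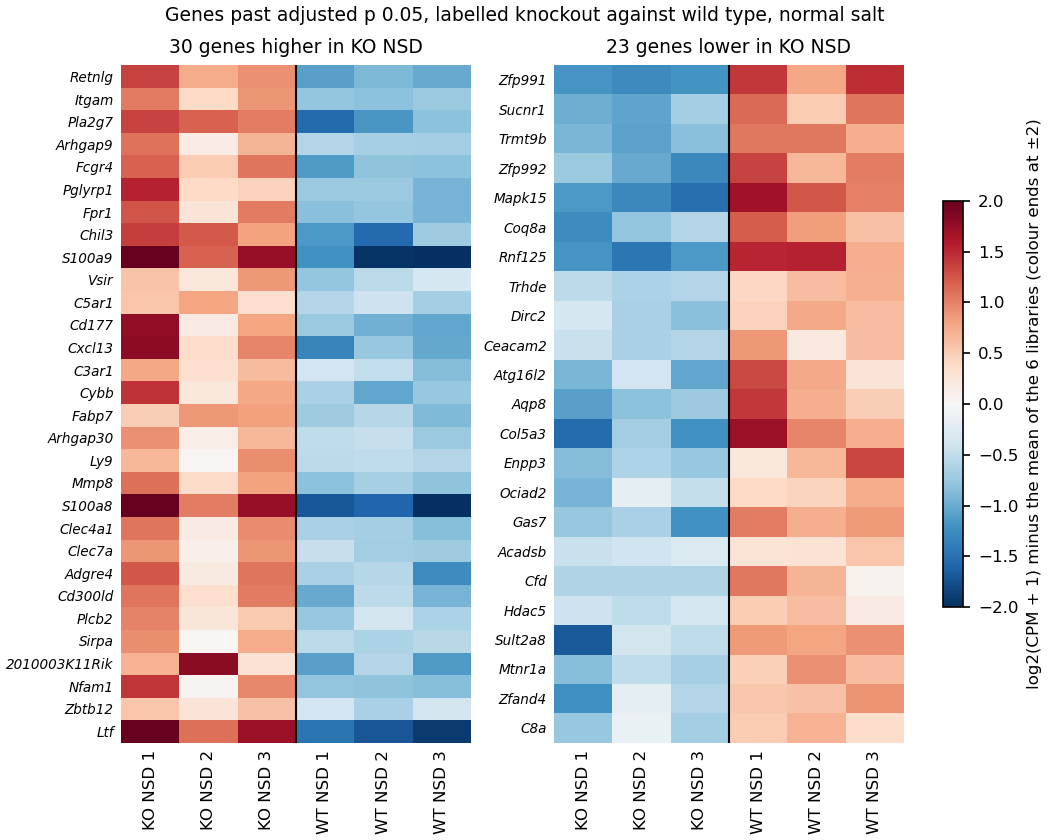
Level of 53 of the 54 called genes in each library, as log2(CPM + 1) minus the mean of the 6 libraries (columns, KO NSD 1 to 3 left of the line and WT NSD 1 to 3 right of it; rows, genes by rising p). Most higher genes are palest in KO NSD 2, the labelled knockout library nearest to wild type in 26 of all 31, and the 23 lower genes have no such library.

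Granule genes of neutrophils, white cells that carry antimicrobial proteins, were higher in the labelled knockouts. Of 17 granule genes 16 were tested. All 16 had a log2 fold change above 0 and 8 were called higher, against 0.238% of all genes, with a median of 4.05. A gene near 0 in WT NSD could enter the test through its level in KO NSD, so the count above 0 is forced in part. Ltf, which codes for the iron-binding granule protein lactoferrin, had 18.2, 7.62 and 12.3 CPM in KO NSD 1 to 3, against 0.449, 0.227 and 0.059 CPM in WT NSD 1 to 3 (50.0-fold; log2 fold change 5.64 ± 1.03, adjusted p = 0.0466). S100a8, the partner of S100a9 in calprotectin, had 52.0, 15.8 and 26.9 CPM in KO NSD, against 1.57, 1.76 and 0.885 CPM in WT NSD (log2 fold change 4.48 ± 0.78, adjusted p = 0.0454). Every labelled knockout library lay above every wild-type library, and KO NSD 2 was the lowest of the labelled knockouts for both genes. Mmp8, the neutrophil collagenase gene, had 3.00, 1.40 and 2.26 CPM in KO NSD, against 0.056, 0.17 and 0.059 CPM in WT NSD (adjusted p = 0.0454). Cd177, a surface protein gene of neutrophils, had 6.00, 1.30 and 2.55 CPM in KO NSD, against 0.224, 0.057 and 0 CPM in WT NSD (adjusted p = 0.0403). Retnlg, Pglyrp1, Chil3 and S100a9 were the other called granule genes, at 10.9- to 20.0-fold. The list's median was 4.74, 3.45 and 3.57 with KO NSD 1, 2 or 3 alone, and the part of sex in these values was not tested. Summed over the list, levels were 1316, 839 and 529 CPM in KO NSD 1 to 3. They were 252, 291 and 418 CPM in WT NSD 1 to 3, with no member at 0 in all 6 libraries. Most of each sum came from members that were not called, and the list holds Lcn2, which is also in the acute phase list below. The part of neutrophil number in these values was not tested.

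The promoters of 4 granule genes and of Itgam, the CD11b integrin gene of myeloid cells, are printed as examples of called higher genes. Capitals mark matches to GAGGAA, the core of sites of ETS family factors such as PU.1, and to TTGCNNAA, a pattern of C/EBP sites. All 5 hold a match to at least 1 pattern, while the called granule gene Chil3 was not among the genes with a match to either. Each sequence is from RefSeq, 250 bases before to 50 after the gene's start, 5′ to 3′ on the gene's strand, with matches on both strands marked (TTCCTC is the reverse complement of GAGGAA).
S100a8 promoter (GRCm38.p6 chr3:90668821-90669120, plus strand): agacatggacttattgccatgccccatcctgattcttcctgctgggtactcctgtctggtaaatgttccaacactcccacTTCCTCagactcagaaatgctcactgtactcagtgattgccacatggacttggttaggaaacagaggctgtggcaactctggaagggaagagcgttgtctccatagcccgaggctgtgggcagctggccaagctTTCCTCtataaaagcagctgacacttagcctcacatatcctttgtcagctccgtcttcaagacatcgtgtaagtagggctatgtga
S100a9 promoter (GRCm38.p6 chr3:90695672-90695971, minus strand): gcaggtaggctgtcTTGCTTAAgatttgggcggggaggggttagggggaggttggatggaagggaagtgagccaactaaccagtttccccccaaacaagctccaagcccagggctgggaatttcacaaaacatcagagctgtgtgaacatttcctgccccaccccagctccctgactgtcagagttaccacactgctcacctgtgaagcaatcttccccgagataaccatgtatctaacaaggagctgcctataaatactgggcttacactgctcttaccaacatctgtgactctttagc
Ltf promoter (GRCm38.p6 chr9:111019042-111019341, plus strand): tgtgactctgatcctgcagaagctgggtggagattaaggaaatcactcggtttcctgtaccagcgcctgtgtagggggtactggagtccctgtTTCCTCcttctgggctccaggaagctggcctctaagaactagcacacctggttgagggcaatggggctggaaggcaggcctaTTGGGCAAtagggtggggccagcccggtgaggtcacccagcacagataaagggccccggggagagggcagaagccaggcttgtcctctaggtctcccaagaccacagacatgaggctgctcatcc
Mmp8 promoter (GRCm38.p6 chr9:7558179-7558478, plus strand): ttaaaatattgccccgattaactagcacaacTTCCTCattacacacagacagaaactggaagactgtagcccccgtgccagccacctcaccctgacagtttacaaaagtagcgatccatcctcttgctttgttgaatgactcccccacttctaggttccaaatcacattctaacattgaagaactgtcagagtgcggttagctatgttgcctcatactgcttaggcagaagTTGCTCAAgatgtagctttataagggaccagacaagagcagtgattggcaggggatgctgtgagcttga
Itgam promoter (GRCm38.p6 chr7:128062390-128062689, plus strand): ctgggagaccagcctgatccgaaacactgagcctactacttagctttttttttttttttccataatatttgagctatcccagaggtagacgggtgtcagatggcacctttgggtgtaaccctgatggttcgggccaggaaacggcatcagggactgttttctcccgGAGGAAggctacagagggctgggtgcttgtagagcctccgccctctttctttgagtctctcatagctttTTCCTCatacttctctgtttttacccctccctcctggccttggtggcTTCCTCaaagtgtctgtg
GAGGAA was found in 16 of the 27 called higher genes with a promoter in the table (59.3%), in 6 of 17 called lower genes (35.3%) and in 31.3% of the promoters of 27025 genes. TTGCNNAA was found in 7 of the 27 higher genes (25.9%), in 2 of the 17 lower genes (11.8%) and in 12.2% of all promoters. S100a8 holds GAGGAA at 2 places and S100a9 none, while S100a9 holds 1 match to TTGCNNAA. These are matches of letters in this window and not bound sites.

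Most receptor and signalling genes of phagocytes also lay above 0. Of 18 genes for Fc and complement receptors 17 were above 0 (median 1.60) and 4 were called higher, against 0.238% of all genes. C5ar1, the receptor of the complement fragment C5a, had 2.17, 2.76 and 1.73 CPM in KO NSD 1 to 3, against 0.449, 0.624 and 0.354 CPM in WT NSD 1 to 3 (4.60-fold, adjusted p = 0.0403). C3ar1, which binds C3a, averaged 4.87 ± 0.90 CPM in KO NSD and 1.61 ± 0.44 CPM in WT NSD (SD, n = 3 each; adjusted p = 0.0433). For C5ar1, unlike most called higher genes, KO NSD 2 was the highest library. Fcgr4, an IgG receptor gene, and Itgam were the other called receptors, at log2 fold changes of 2.24 and 2.37. Of 25 genes of myeloid signalling and the phagocyte oxidase 24 were above 0 (median 1.43), and Cybb and Arhgap9 were called higher. Cybb, the catalytic subunit gene of the superoxide-making oxidase, had 37.5, 15.5 and 23.04 CPM in KO NSD, against 8.02, 5.90 and 7.38 CPM in WT NSD (3.57-fold, log2 fold change 1.83 ± 0.33, adjusted p = 0.0433). KO NSD 1 was highest and KO NSD 2 nearest to wild type. DESeq2 called 13 of the 18 receptors and 19 of the 25 signalling genes higher, and 3.25% of all genes. Of 21 neutrophil receptor genes 15 were tested, of which 14 were above 0 (median 1.06), and Fpr1 and Itgam were called. With KO NSD 2 alone the medians were 0.92 for the Fc and complement receptors, 0.62 for the signalling genes and 0.60 for the neutrophil receptors.

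Several other genes of innate immune cells passed one by one. Cxcl13 codes for a chemokine that draws B cells. It had 15.1, 4.92 and 8.13 CPM in KO NSD 1 to 3, against 0.842, 1.76 and 1.30 CPM in WT NSD 1 to 3 (7.20-fold, adjusted p = 0.0433). Of 21 chemokine genes 15 were tested (12 above 0, median 0.66), and Cxcl13 was the 1 called, against 0.238% of all genes called higher. Cxcl13 was above the wild-type range in every labelled knockout library. Clec7a, the fungal glucan receptor dectin-1, averaged 6.68 ± 2.13 CPM in KO NSD and 2.15 ± 0.32 CPM in WT NSD. Sirpa, the macrophage receptor that reads CD47, averaged 25.6 ± 7.8 CPM in KO NSD and 10.7 ± 0.4 CPM in WT NSD. Vsir, the checkpoint protein VISTA, averaged 8.18 ± 1.99 CPM in KO NSD and 3.22 ± 0.63 CPM in WT NSD (SD, n = 3 each; adjusted p = 0.0403 to 0.0454 for these 3 genes). The lectin gene Clec4a1, the adhesion receptor Adgre4, the adaptor Nfam1, the phospholipase Plcb2, the SLAM family receptor Ly9, the GTPase regulator Arhgap30 and Cd300ld rose 2.87- to 5.39-fold. Other called higher genes were the fatty acid binding protein gene Fabp7, the zinc finger gene Zbtb12, Pla2g7 of macrophages and 2010003K11Rik, at 2.40- to 9.43-fold. 2010003K11Rik had 31.2, 68.4 and 23.4 CPM in KO NSD, against 8.42, 12.3 and 8.08 CPM in WT NSD.

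**Figure D2:**
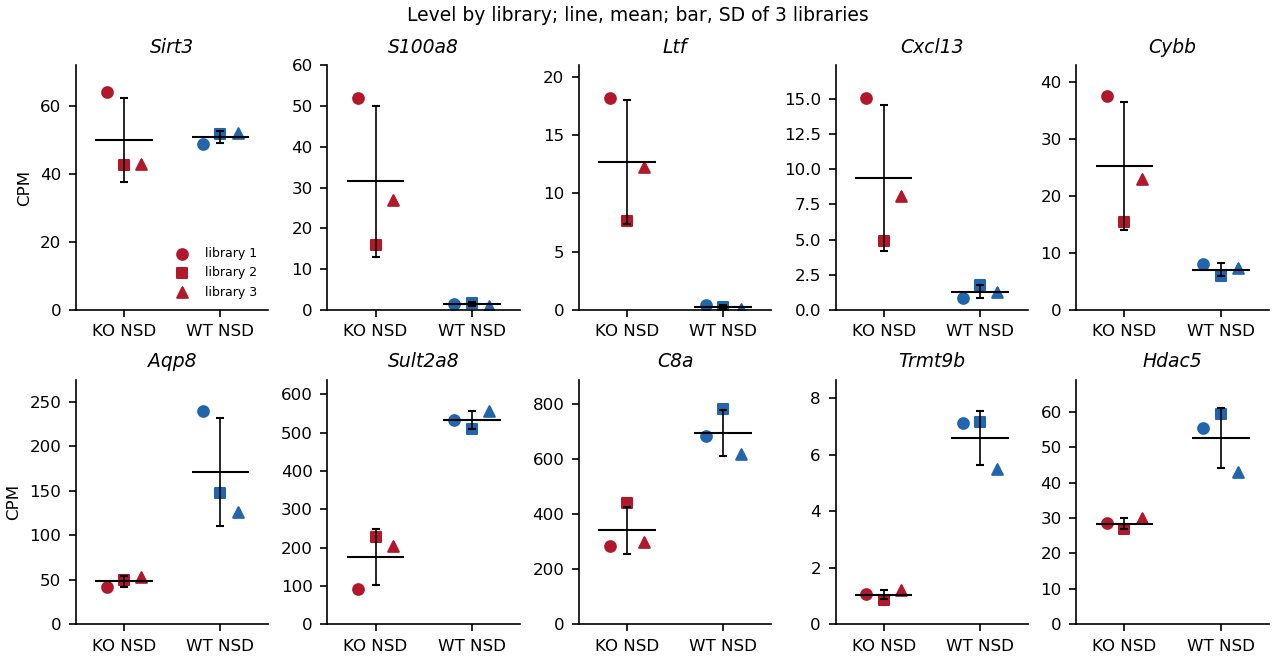
CPM of Sirt3, 4 called higher genes and 5 called lower genes in each library (KO NSD left, WT NSD right; circle, square and triangle, libraries 1, 2 and 3; line and bar, mean and SD of 3 libraries; every axis starts at 0). Sirt3 overlaps between the groups and the other 9 genes do not; S100a8 and Ltf spread widely within KO NSD, with KO NSD 1 highest.

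Most markers of resident macrophages and lymphocytes lay above 0, with 0 called by edgeR. Of 16 Kupffer cell markers 15 were above 0 (median 1.63). DESeq2 called 10 of them higher, and over all genes it called 3.25% higher and 1.82% lower. The sum of the Kupffer cell markers was 1325, 524 and 960 CPM in KO NSD 1 to 3, against 386, 470 and 370 CPM in WT NSD 1 to 3. Vsig4, a complement receptor of Kupffer cells, had 60.7, 16.3 and 43.0 CPM in KO NSD, against 6.56, 12.3 and 7.79 CPM in WT NSD (log2 fold change 2.17, adjusted p = 0.0763). Timd4, a receptor for dying cells, had 13.8, 4.05 and 9.43 CPM in KO NSD, against 1.91, 3.52 and 2.18 CPM in WT NSD (adjusted p = 0.088). For both genes KO NSD 2 stood just above the highest wild-type library. The Kupffer median was 2.25, 0.50 and 1.67 with KO NSD 1, 2 or 3 alone. Of 11 T cell genes tested 9 were above 0 (median 1.69; 3 higher and 1 lower by DESeq2), Lck, a kinase of T cell receptor signalling, among them (1.77, 1.03 and 2.36 CPM in KO NSD, against 0.449, 0.227 and 0.531 CPM in WT NSD; adjusted p = 0.0616). All 8 MHC class II genes tested were above 0 (median 1.15, 2 higher by DESeq2), but the median was -0.07 with KO NSD 2 alone. Cd74, the invariant chain, had 171, 51.9 and 159 CPM in KO NSD, against 45.6, 63.1 and 44.6 CPM in WT NSD (adjusted p = 0.124), so KO NSD 2 lay within the wild-type range. Monocyte and recruited macrophage markers (17 of 19 above 0, median 1.33, 4 called higher, against 0.238% of all genes) had a median of 0.49 with KO NSD 2 alone. Of 12 NK cell genes 5 were tested, all above 0 (median 1.11, and -0.11 with KO NSD 2 alone). Of 13 B cell genes 8 were tested, all above 0 (median 0.91, and 0.64 with KO NSD 2 alone). The NK and B cell lists had 0 genes called by either tool and rested on levels of a few CPM for most genes. A gene near 0 in most libraries could enter the test through 1 group, so these counts above 0 can be forced in part. All KO NSD libraries lay above all WT NSD libraries in 1 of the 5 NK and 0 of the 8 B cell genes, against 10.2% of all genes. Hepatocyte markers had a median of 0.11 (10 of 15 above 0, 0 called, 1 higher by DESeq2).

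Of the genes for inflammatory mediators, 1 passed by edgeR, the chemokine gene Cxcl13, while DESeq2 called 4 chemokine genes higher. Over all genes edgeR called 0.238% higher, and DESeq2 called 3.25% higher and 1.82% lower. Of 22 genes of cytokines and NF-kB targets 18 were above 0 (median 0.85, and 0.22 with KO NSD 2 alone) with 0 called by edgeR and 6 higher by DESeq2; Tnf, which codes for a cytokine of activated macrophages, had 1.08, 0.919 and 0.529 CPM in KO NSD, against 0.056, 0.114 and 0.118 CPM in WT NSD (log2 fold change 3.05, adjusted p = 0.0513). Ccl6 and Ccl24, chemokine genes of myeloid cells, had log2 fold changes of 1.82 (adjusted p = 0.0616) and 2.38 (adjusted p = 0.0701). Interferon response genes were below 0 in 15 of 23 (median -0.25, but 0.62 without WT NSD 1). The interferon-induced GTPases had a median of -0.20, above 0 once KO NSD 2 (0.015) or WT NSD 3 (0.14) was left out, and 0 genes of either list were called by edgeR, while DESeq2 called 2 of the GTPases lower. Acute phase genes, made by hepatocytes in inflammation, were above 0 in 20 of 26 (median 0.45, 0 called, 3 higher by DESeq2). Mt1, a metallothionein gene, had 1214, 201 and 146 CPM in KO NSD, against 18.9, 44.9 and 25.0 CPM in WT NSD (adjusted p = 0.211), above wild type in each labelled knockout library but widely spread.

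**Figure D3:**
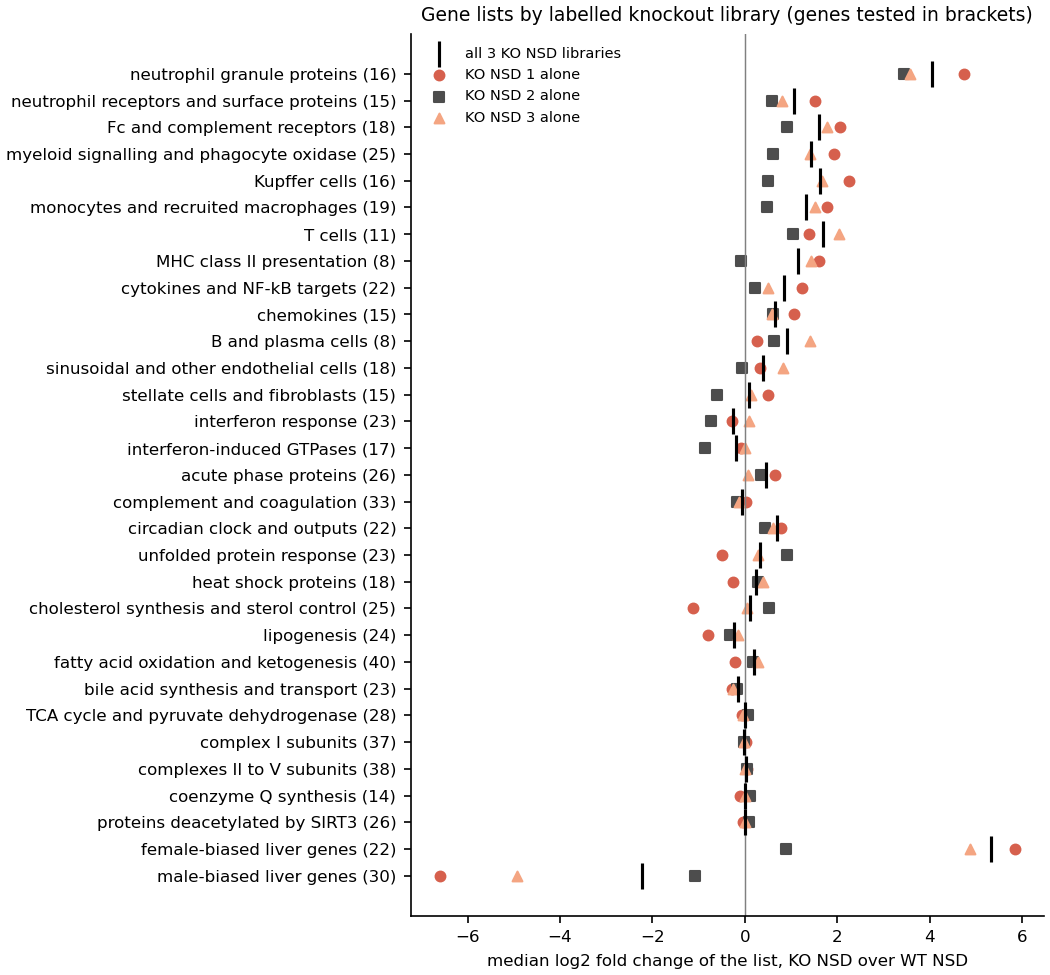
Median log2 fold change of 31 gene lists, KO NSD over WT NSD, with all 3 labelled knockout libraries (black bars) and with each of them alone (circle, KO NSD 1; square, KO NSD 2; triangle, KO NSD 3). KO NSD 2 stands at 3.45 for neutrophil granule genes but at 0.50 for Kupffer cell and -0.07 for MHC class II genes. The lists of respiratory subunits, the TCA cycle, coenzyme Q and SIRT3 targets lie near 0 in every library, while fatty acid oxidation genes split by library.

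The genes lower in the labelled knockouts included receptors, a channel and a transporter. Sucnr1, a receptor for the TCA cycle metabolite succinate, had 13.7, 12.9 and 17.0 CPM in KO NSD 1 to 3, against 62.6, 40.2 and 59.6 CPM in WT NSD 1 to 3 (log2 fold change -1.90 ± 0.22, adjusted p = 0.00784). Aqp8, a channel for water and hydrogen peroxide, had 41.6, 50.0 and 53.4 CPM in KO NSD, against 240, 148 and 126 CPM in WT NSD (log2 fold change -1.82 ± 0.31, adjusted p = 0.0378). The labelled knockouts were close to each other in both genes, and all lay below wild type. Mtnr1a, the melatonin receptor gene, had 0.049, 0.324 and 0.192 CPM in KO NSD, against 1.63, 2.55 and 1.89 CPM in WT NSD (adjusted p = 0.0454). Dirc2, a lysosomal transporter gene, averaged 15.4 ± 2.9 CPM in KO NSD and 37.0 ± 4.0 CPM in WT NSD (SD, n = 3 each; adjusted p = 0.0237). Of the other solute carriers and metabolite receptors, 0 of 16 passed by edgeR. The list of 17 had a median of 0.24, and DESeq2 called 3 of it lower, against 1.82% of all genes. The promoters of Sucnr1 and Aqp8 are printed from the same source as examples of called lower genes with close levels in KO NSD. Capitals mark GAGGAA on either strand and CACGTG, the E-box of clock and other bHLH factors, whose letters read the same on both strands.
Sucnr1 promoter (GRCm38.p6 chr3:60081619-60081918, plus strand): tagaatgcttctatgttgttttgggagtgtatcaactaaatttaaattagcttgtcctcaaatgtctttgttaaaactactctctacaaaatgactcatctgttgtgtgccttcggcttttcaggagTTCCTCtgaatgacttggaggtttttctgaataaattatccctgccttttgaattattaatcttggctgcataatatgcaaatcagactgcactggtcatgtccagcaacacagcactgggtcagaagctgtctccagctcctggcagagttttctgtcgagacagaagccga
Aqp8 promoter (GRCm38.p6 chr7:123462044-123462343, plus strand): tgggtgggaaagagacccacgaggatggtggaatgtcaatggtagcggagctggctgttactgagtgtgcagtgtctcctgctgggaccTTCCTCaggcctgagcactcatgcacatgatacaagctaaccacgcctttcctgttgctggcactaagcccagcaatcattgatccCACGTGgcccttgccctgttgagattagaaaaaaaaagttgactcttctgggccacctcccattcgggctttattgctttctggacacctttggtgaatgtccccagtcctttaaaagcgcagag
CACGTG was found in 4 of the 17 called lower genes with a promoter in the table (23.5%: Aqp8, Dirc2, Hdac5 and Mtnr1a), in 0 of the 27 called higher genes and in 8.09% of all promoters.

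The lower genes also held 3 enzyme or coenzyme Q genes and 1 complement gene of hepatocytes. Sult2a8, a bile acid sulfotransferase of mouse liver, had 90.7, 227 and 205 CPM in KO NSD 1 to 3, against 534, 509 and 557 CPM in WT NSD 1 to 3 (log2 fold change -1.61 ± 0.30, adjusted p = 0.0454). C8a, a chain of the complement attack complex, had 284, 439 and 298 CPM in KO NSD, against 684, 781 and 616 CPM in WT NSD (log2 fold change -1.03 ± 0.20, adjusted p = 0.0466). The groups did not overlap in either gene, and KO NSD 2 was the labelled knockout nearest to wild type in both. C8a was the 1 called member of 33 complement and coagulation genes, 11 of which were above 0 (median -0.05, and 0.04 with library totals). Over all genes 0.176% were called lower. Acadsb, which breaks down short branched acyl-CoA in mitochondria, averaged 56.0 ± 3.1 CPM in KO NSD and 95.0 ± 10.8 CPM in WT NSD (adjusted p = 0.0454). Coq8a, needed for coenzyme Q synthesis, had 110, 154 and 177 CPM in KO NSD, against 615, 474 and 397 CPM in WT NSD (log2 fold change -1.75 ± 0.27, adjusted p = 0.0237), and was the 1 called gene of 14 in that pathway (7 above 0, median -0.0048, and 0.089 with library totals).

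Regulators and genes of other kinds made up the rest of the lower genes. Trmt9b, which codes for a protein of the tRNA methyltransferase family, had 1.08, 0.865 and 1.20 CPM in KO NSD 1 to 3, against 7.12, 7.15 and 5.49 CPM in WT NSD 1 to 3 (log2 fold change -2.64 ± 0.33, adjusted p = 0.00784). Hdac5, a histone deacetylase gene, had 28.5, 26.9 and 29.9 CPM in KO NSD, against 55.4, 59.4 and 43.1 CPM in WT NSD (log2 fold change -0.89 ± 0.17, adjusted p = 0.0454). Levels of both genes varied little among the labelled knockouts. The zinc finger genes Zfp991 and Zfp992, neighbours on chromosome 4 with near-identical relatives whose reads could be shared, fell by 3.37 and 2.47 on the log2 scale. The autophagy gene Atg16l2, the collagen chain gene Col5a3, the ectonucleotidase Enpp3, the kinase gene Mapk15, the ubiquitin ligase gene Rnf125, and Gas7, Ociad2 and Zfand4 were 2.11- to 7.39-fold higher in WT NSD than in KO NSD. Trhde, which degrades thyrotropin-releasing hormone, and Ceacam2, an adhesion protein gene, averaged 0.15 ± 0.04 and 0.065 ± 0.075 CPM in KO NSD and 1.59 ± 0.27 and 1.35 ± 0.53 CPM in WT NSD (SD, n = 3 each). Cfd, the adipocyte protease adipsin, had 0 counts in all 3 KO NSD libraries and 38, 25 and 10 counts in WT NSD 1 to 3, at least 27.7-fold lower in KO NSD when 3 counts over the group are taken as the floor (adjusted p = 0.0454). Markers of adipose tissue were evenly split: of 6 tested, 3 were above 0 and 3 below, Cfd among the latter. The list summed to 808, 828 and 2514 CPM in KO NSD and 5447, 3598 and 4380 CPM in WT NSD. It holds Car3, a gene that hepatocytes also express, and Thrsp, which is also in the lipogenesis list. The part of adipose tissue in the result was not tested. The additional wild-type library on normal salt had 52.02 CPM of Cfd, against at most 2.13 CPM in WT NSD, so wild-type libraries spread widely in this gene.

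Most lists of genes of the mitochondrial pathways in which SIRT3 is known to act had medians near 0. Of 26 tested genes listed here for proteins deacetylated by SIRT3, 13 were above 0 (median 0.01), 0 were called by edgeR and 1 was lower by DESeq2. Cat, the catalase gene, is in that list although catalase is not chiefly a mitochondrial enzyme. It had 1784, 1997 and 2028 CPM in KO NSD 1 to 3, against 2994, 2989 and 3136 CPM in WT NSD 1 to 3 (log2 fold change -0.65, adjusted p = 0.074), and the groups did not overlap. Medians were -0.01 over 37 subunits of complex I, 0.03 over 38 subunits of the other respiratory complexes and 0.0004 over 28 genes of the TCA cycle and pyruvate dehydrogenase, with 0 called in each by edgeR; DESeq2 called 2 genes of the TCA list lower and 0 of the subunits. The signs of these medians were not stable: complex I was at 0.096 with library totals, the TCA list at -0.0093 with DESeq2's size factors in edgeR (the SIRT3 targets were then just below 0), and the other complexes at -0.11 without WT NSD 3. Dlat, a subunit of pyruvate dehydrogenase, had 28.9, 35.9 and 33.9 CPM in KO NSD, against 57.2, 46.1 and 67.0 CPM in WT NSD (adjusted p = 0.0887). Fatty acid oxidation and ketogenesis genes had a median of 0.20 (25 of 40 above 0) but split by library. Their median was -0.21, 0.19 and 0.29 with KO NSD 1, 2 or 3 alone. They summed to 9881, 23526 and 16702 CPM in KO NSD 1 to 3, against 9641, 9773 and 13824 CPM in WT NSD 1 to 3. Urea cycle and amino acid genes had a median of 0.08 (26 of 41 above 0). In each of these last 2 lists edgeR called 0 genes and DESeq2 2 higher and 1 lower. Over all genes DESeq2 called 3.25% higher and 1.82% lower.

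Lipid genes included several that did not overlap without passing. Of 24 lipogenesis genes 16 were below 0 (median -0.24), 7 had all KO NSD libraries below all WT NSD libraries (29.2% of the list, against 9.3% of all genes) and 0 were called by edgeR, while DESeq2 called 6 lower (1.82% of all genes). Mlxipl, the glucose-sensing transcription factor ChREBP, had 257, 187 and 211 CPM in KO NSD 1 to 3, against 469, 360 and 456 CPM in WT NSD 1 to 3 (log2 fold change -0.97, adjusted p = 0.0585). Insig2, which holds back sterol synthesis, had 32.6, 70.3 and 62.6 CPM in KO NSD, against 156, 158 and 150 CPM in WT NSD (adjusted p = 0.0675). All labelled knockouts were lower than all wild types for both genes. Cholesterol synthesis genes split by library, with a median of -1.11, 0.52 and 0.05 with KO NSD 1, 2 or 3 alone. Genes of the unfolded protein response split the same way (medians -0.49, 0.92 and 0.29), with the chaperone gene Hsp90b1 at 411, 1832 and 1008 CPM in KO NSD, against 517, 519 and 521 CPM in WT NSD.

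Clock genes lay on both sides of 0 without passing. Of 22 clock genes 16 were above 0 (median 0.69), 10 lay above and 5 below wild type in every labelled knockout library (10.2% and 9.3% of all genes), and 0 were called by edgeR. DESeq2 called 7 higher and 2 lower (3.25% and 1.82% of all genes). Wee1, a clock-driven cell cycle kinase gene, had 12.1, 12.2 and 15.97 CPM in KO NSD 1 to 3, against 3.09, 2.50 and 3.07 CPM in WT NSD 1 to 3 (adjusted p = 0.0743). Npas2, a partner of BMAL1 in the clock's activating arm, had 0.148, 0.162 and 0.192 CPM in KO NSD, against 14.1, 13.5 and 1.53 CPM in WT NSD (adjusted p = 0.0762). WT NSD 3 thus lay nearer to the labelled knockouts for Npas2 than the other wild types did.

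Genes that differ between the livers of male and female mice were furthest from wild type in KO NSD 1 and KO NSD 3, the libraries nearly without Y-linked transcripts. Of 31 female-biased genes 22 were tested, with medians of 5.85, 0.88 and 4.88 with KO NSD 1, 2 or 3 alone. The 30 male-biased genes had medians of -6.60, -1.07 and -4.92, and 0 genes of either list were called by edgeR. DESeq2 called 14 of the female-biased genes higher and 7 of the male-biased genes lower, against 3.25% and 1.82% of all genes. Cyp3a41a, a female-specific P450 gene, had 1780, 0 and 1360 CPM in KO NSD 1 to 3, against 0.168, 0.17 and 0.118 CPM in WT NSD 1 to 3. Mup7, a male-biased major urinary protein gene of a family with near-identical copies, had 8.42, 9613 and 10.4 CPM in KO NSD, against 18963, 27243 and 4355 CPM in WT NSD. In both genes KO NSD 2 lay with or near the wild types. Among the 10 genes highest and the 10 lowest in KO NSD 1 and 3 against KO NSD 2, 18 were from these lists or Y-linked, a description of genes chosen for that difference. KO NSD 2 also lay outside the wild types in many of these genes: all 3 labelled knockout libraries were above all wild types in 11 of the 22 female-biased genes (50%, against 10.2% of all genes) and below them in 19 of the 30 male-biased genes (63.3%, against 9.3%). KO NSD 1 and KO NSD 3 already stood far from wild type in most of these genes, so the shares over all genes are not a like measure for KO NSD 2. A female-biased gene near 0 in WT NSD could also enter the test through KO NSD 1 and KO NSD 3, so that count is forced in part. Cyp17a1, a steroid hydroxylase gene, had 86.4, 75.4 and 105 CPM in KO NSD, against 2.64, 4.20 and 6.02 CPM in WT NSD (log2 fold change 4.38, adjusted p = 0.0539). Elovl3, a male-biased fatty acid elongase gene, had 0.443, 4.48 and 1.06 CPM in KO NSD, against 534, 802 and 175 CPM in WT NSD (log2 fold change -7.99, adjusted p = 0.0734). Bcl6, a male-biased repressor that acts downstream of growth hormone in liver, had 15.5, 17.6 and 20.0 CPM in KO NSD, against 94.4, 76.9 and 74.1 CPM in WT NSD (adjusted p = 0.108). All labelled knockouts lay on the same side of wild type in these 3 genes, and the part of sex in any difference between the groups was not tested.

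**Figure D4:**
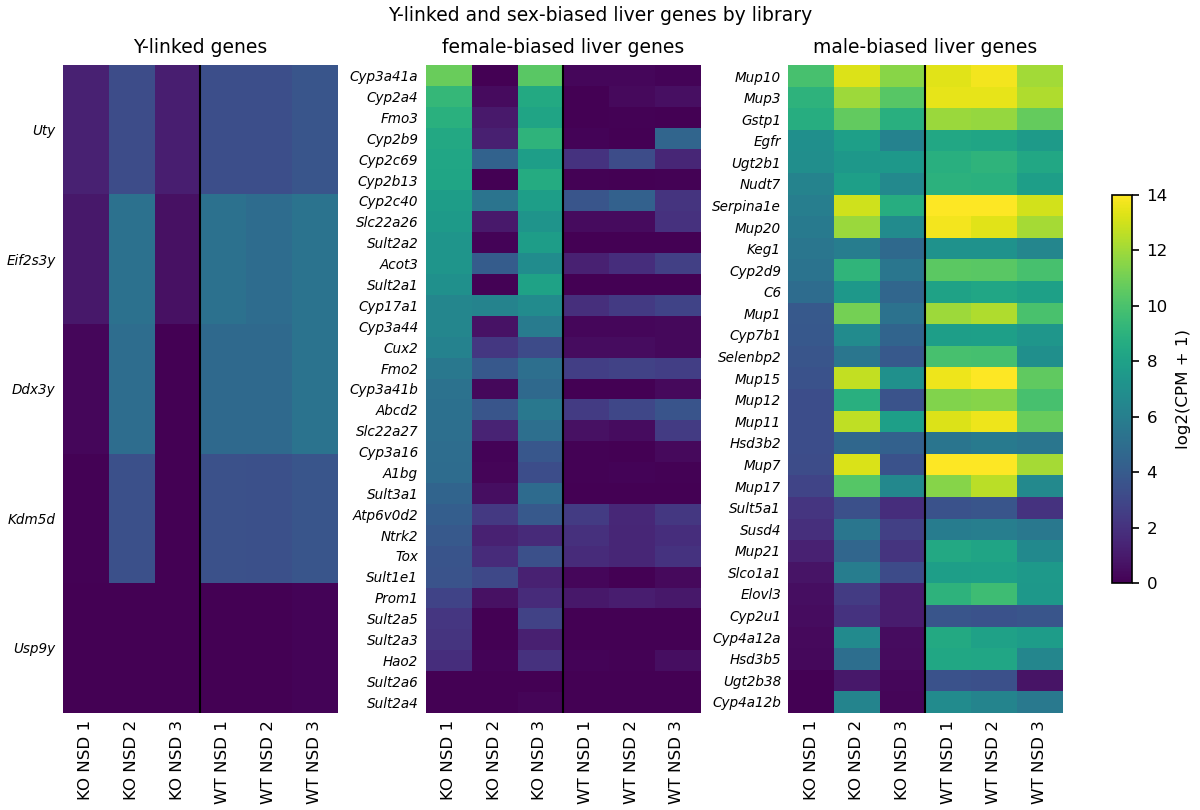
Level of Y-linked, female-biased and male-biased liver genes as log2(CPM + 1) in each library (columns, KO NSD 1 to 3 left of the line and WT NSD 1 to 3 right of it; rows, genes by level in KO NSD 1). KO NSD 1 and KO NSD 3 are dark for Y-linked genes, bright for most female-biased and dark for most male-biased genes, and KO NSD 2 lies between them and the wild types or with the wild types in many genes.

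On high salt the called genes had smaller fold changes between the labelled genotypes. The groups also differed in their Y-linked transcripts between the diets: these summed to 71.8 to 104 CPM in KO HSD, against 62.7 to 107 CPM in WT HSD, so no KO HSD library stood apart as KO NSD 1 and KO NSD 3 did, and the part of this in the difference between the diets was not tested. By edgeR 0 of 13051 genes (0%) passed between KO HSD and WT HSD (smallest adjusted p 0.221; 603 genes under 0.05 before adjustment), limma-voom also called 0 and DESeq2 29 (21 higher, 8 lower), and 47.2% of all genes had a log2 fold change above 0. The 31 genes higher on normal salt had a median log2 fold change of 2.20 there and of 0.59 on high salt, where 30 were above 0; the 23 lower genes had medians of -1.90 and -0.51, with 20 below 0 on high salt. These genes were chosen for their difference on normal salt, so a smaller value on high salt describes them and does not test them. Tested as a difference between the genotype effects, 0 genes (0%) passed by edgeR (706 with an unadjusted p under 0.05, smallest adjusted p 0.835); DESeq2 called 10 and limma-voom 0. Granule genes had a list median of 3.62 on high salt. S100a8 had 13.3, 5.94 and 2.29 CPM in KO HSD 1 to 3, against 0.478, 1.01 and 0.046 CPM in WT HSD 1 to 3 (log2 fold change 3.86), with no overlap. Cybb had 12.4, 19.03 and 13.97 CPM in KO HSD, against 13.5, 7.82 and 7.12 CPM in WT HSD (log2 fold change 0.67), with overlap, and the Kupffer median on high salt was 0.14. Sult2a8 had 384, 542 and 678 CPM in KO HSD, against 553, 697 and 586 CPM in WT HSD (log2 fold change -0.20).

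**Figure D5:**
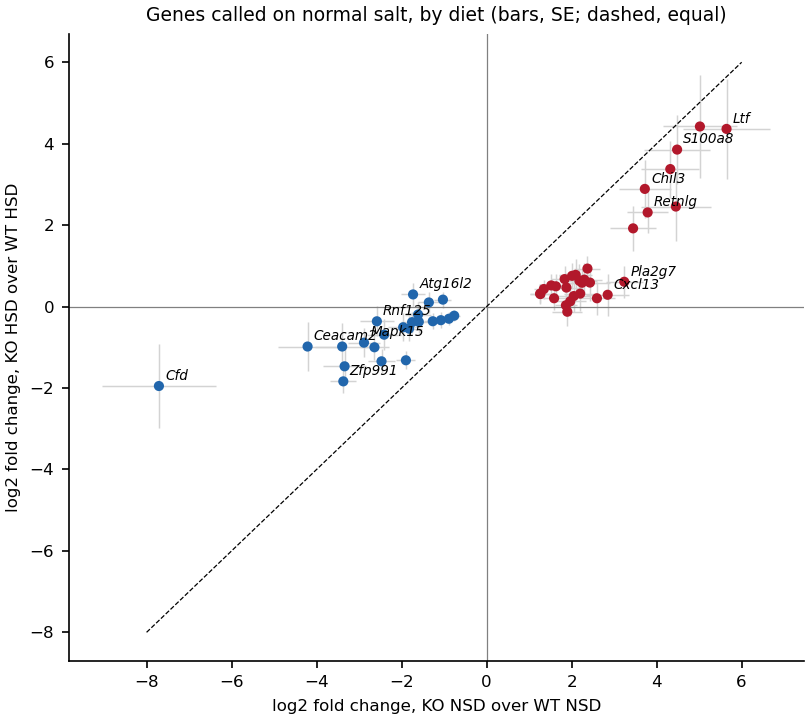
Log2 fold change of the 54 called genes, KO NSD over WT NSD (x axis) and KO HSD over WT HSD (y axis); bars are standard errors, the dashed line marks equal values, and Cfd is a fitted value with all KO NSD libraries at 0. All 54 genes are smaller in size on high salt; Ltf and S100a8 stand at 4.36 and 3.86 on the y axis.

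The additional wild-type library on normal salt often lay between the groups. Its CPM were scaled over all 15 libraries and those of the groups over 12, so its place close to the edge of a range is uncertain. In 38 of the 54 called genes its level was between the lowest and highest groups' ranges, in 11 it was within the WT NSD range or beyond it, and in 5 it reached the KO NSD range. Zfp991 had 1.69 CPM in that library, against 0.865 to 0.984 CPM in KO NSD and 6.75 to 11.6 CPM in WT NSD. Zfp992 had 1.75 CPM there, within the KO NSD range of 1.54 to 2.71 CPM. S100a8 had 1.98 CPM there, close to WT NSD, and Sult2a8 578 CPM, above the wild-type range of 509 to 557 CPM. Joined to WT NSD, the additional library left 39 genes called (25 higher, 14 lower), of which 27 were among the 54. Of the 4 genes that passed without any single library, Sucnr1 had 28.9 and Trmt9b 2.50 CPM there, between the ranges of the groups.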

How the data were processed

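Poly(A) RNA of mouse liver was sequenced. The authors deposited 1 table of expected counts with a column for each of 15 libraries, and FPKM values for each library. Bowtie2 2.2.5, RSEM 1.2.8 and build mm10 are named in the submitters' processing notes. The sources used here do not give the annotation or the strandedness. RSEM divides reads that match several genes, so near-identical genes (Zfp991 and Zfp992, the Mup, Cyp and Sult2a families, Ceacam2), overlapping and antisense genes are uncertain. Coordinates come from RefSeq on GRCm38.p6, where 18009 of the 18131 genes were found. 0 sample columns were left unmapped.

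Expected counts were rounded and 12 libraries were fitted with 4 group means by edgeR 4.0.16 (TMM, filterByExpr, robust quasi-likelihood F test; R 4.3.3), with Benjamini-Hochberg adjustment over 13051 genes and a threshold of 0.05; the fit was tested on simulated data. The contrasts were KO NSD minus WT NSD, KO HSD minus WT HSD, and the first minus the second. A fit with 1 labelled knockout library assumes that it varies like the other groups. CPM come from this fit, except those of the additional wild-type library, which were scaled by TMM over all 15 libraries. FPKM only gave transcript lengths, and the biological coefficient of variation was 0.272. An exact permutation test of 3 libraries against 3 cannot give a p under 0.1. Alternatives were DESeq2 1.42.0, limma-voom (limma 3.58.1), other scalings and filters, a replicate block, the additional library, and libraries left out.

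Genes with values in the text were picked from 309 genes that a rule gave. The rule took Sirt3, called genes, and per gene list every called member and the 4 with the smallest p. It also took all sex-linked, sex-biased, sirtuin and coenzyme Q genes. The 20 genes that most set KO NSD 1 and 3 apart from KO NSD 2 were added. Not all of the 309 are named, and the choice among them followed no stated rule. The comparison and the 59 lists were chosen with earlier results of these data known. Lists are described by counts and medians. A gene low in most libraries could pass the filter through 1 group alone, so counts above 0 in lists with untested members can be forced in part. Results of 2 genes are not reported here. The X-inactivation list had no gene in the table and was not analysed here. Promoters were matched by gene ID for 27 of 31 higher and 17 of 23 lower genes.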

Additional observations from a re-analysis of the deposited data

How the results depend on the processing

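The count of 54 genes called by edgeR depended on the fit. It was 175 with the 6 normal salt libraries alone, 661 with DESeq2, 27 with limma-voom and 26 with genes of a mean of at least 1 CPM. Leaving out 1 library gave 5 to 420 genes. With KO NSD 1, 2 or 3 as the only labelled knockout it was 67, 0 and 12. Other scalings, no filter and the joined additional library gave 39 to 73. All 54 genes kept their direction in the 19 alternatives that tested them, and 5 were not tested at a mean of at least 1 CPM. Since the groups did not overlap in these genes, the direction was fixed in advance where libraries were only left out. The difference between diets, with 0 genes, had 10 with DESeq2, 4 and 5 with KO NSD 1 or 3 alone, 0 to 8 with 1 library left out, and 0 in the other alternatives that hold both diets. The log2 fold change of Sirt3 was 0.32 with KO NSD 1 alone, 0.064 with library totals, 0.070 without KO NSD 2 and 0.050 without KO NSD 3, and -0.28 to 0.070 over the 6 libraries left out in turn, never called. Among values of the other named genes, 876 kept their side of the threshold, 466 no longer passed and 53 newly passed, all in the same direction; Cyp3a41a turned to -4.56 with KO NSD 2 alone, and Hsp90b1 to -0.35 with KO NSD 1 alone. For these changes the cause was not tested. Same-numbered libraries of the groups did not all deviate together (r = 0.08, 0.03 and 0.13), KO NSD 2 correlated best with WT NSD 1 (0.037), and the numbers were not taken as pairs; a replicate block gave 98 genes with 12 libraries and 203 with 6, with 52 and 44 of the 54 genes among them. Depth limits the low genes most: 28 of the 31 higher genes averaged under 5 CPM in WT NSD, where few counts carry each fold.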
